A study of Homo sapiens with 18 samples.

Results

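A set of 10 transcripts of the insulin-like growth factor (IGF) and insulin axis was followed through hypoxia in a human hepatoma line and in a derivative edited at APOA4. They are the binding proteins IGFBP1, IGFBP2, IGFBP3 and IGFBP4, the ligand IGF2, the receptors IGF1R, IGF2R and INSR, and the receptor substrates IRS1 and IRS2. They are 10 of the 61806 genes of the deposited count table, found by Ensembl gene identifier and symbol. The family was chosen by measured values: it was picked after the increase of IGFBP3 from 0 h to 48 h in the edited line was known, and IGFBP3 is therefore described without a test. For the other 9 genes the adjusted p-values come from the fit over all genes.

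HepG2 is an epithelial line from a human liver tumor that keeps the expression of many hepatocyte products. APOA4-KO was made from it with CRISPR-Cas9 and guides against exons 1 to 3 of APOA4, which encodes a lipid-carrying plasma apolipoprotein. The edited line came from single colonies picked for mutations in both alleles. Whether the libraries come from 1 clone or several is not given in the sources used here. Libraries were made from each line before hypoxia (0 h) and when it had spent 24 h or 48 h in 1% oxygen, with 3 poly(A) RNA libraries in each of the 6 groups and 18 libraries in all. The edited cells were kept under the same conditions as the parent, and all 9 APOA4-KO libraries are labelled with the edit. None of the libraries is labelled as normal oxygen at 24 h or 48 h, so hypoxia and time in culture cannot be told apart. APOA4-KO is a derived line set against its parent, so the edit and any other difference between the lines cannot be told apart. The labels do not say whether the 3 libraries of a group came from separate cultures, and the p-values measure only the spread between these libraries, which may be technical.

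In this axis, IGF1 and IGF2 bind the receptor tyrosine kinase IGF1R, and insulin binds the related receptor INSR. Both receptors phosphorylate the docking proteins IRS1 and IRS2, which pass the signal to the PI3K-AKT pathway. IGF2R carries IGF2 to the lysosome and does not signal as a kinase. The IGFBPs are secreted proteins that hold IGFs outside the cell. The liver is the main source of IGFBP1, whose transcription is known to fall with insulin and to rise with fasting and low oxygen.

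IGFBP1 and IGFBP3 lie side by side on chromosome 7. In GENCODE on GRCh38, IGFBP1 spans chr7:45888357-45893668 on the plus strand and IGFBP3 spans chr7:45912245-45921874 on the minus strand. They are separated by 18576 bases with 0 annotated genes between them. The promoters of IGFBP3 and IGF1R are shown because the levels of these genes ran most alike of all pairs among the 10 genes, with a Pearson correlation of log2 CPM of 0.985 over 18 libraries that share their 2 lines and 3 times. The sequences are the 250 bases before the RefSeq start on GRCh38.p14, at chr7:45921273-45921522 on the minus strand for IGFBP3 and at chr15:98648289-98648538 on the plus strand for IGF1R. The IGFBP3 stretch lies inside the GENCODE span given above and holds 2 GENCODE exon bases, so RefSeq and GENCODE place its start differently. Capitals mark ACGTG or GCGTG on either strand (CACGT or CACGC where it lies on the other strand), the core letters of the hypoxia response element.
IGFBP3 promoter: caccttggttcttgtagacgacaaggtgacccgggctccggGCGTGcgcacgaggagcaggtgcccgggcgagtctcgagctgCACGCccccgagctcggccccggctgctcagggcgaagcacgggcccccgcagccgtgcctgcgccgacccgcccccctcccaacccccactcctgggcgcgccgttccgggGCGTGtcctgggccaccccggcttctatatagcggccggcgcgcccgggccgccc
IGF1R promoter: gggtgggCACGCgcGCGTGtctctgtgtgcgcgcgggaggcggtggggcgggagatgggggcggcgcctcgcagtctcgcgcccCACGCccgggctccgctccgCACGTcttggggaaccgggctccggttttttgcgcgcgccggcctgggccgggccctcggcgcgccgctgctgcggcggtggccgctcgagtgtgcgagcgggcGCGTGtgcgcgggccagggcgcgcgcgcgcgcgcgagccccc
The IGFBP3 stretch held 3 GCGTG and 0 ACGTG matches, and the IGF1R stretch held 4 GCGTG and 1 ACGTG. Of all 35116 RefSeq promoters of this length, 43.2% held at least 1 of these motifs, 18.5% ACGTG and 32.2% GCGTG. Entries were found for 8 of the 10 genes, not for IGFBP1 or IGF2. IGF2R held 3 copies of CACGTG, each of which reads as ACGTG on both strands and counts as 2 of its 6 matches. IRS1 and 1 of the 3 IGFBP2 entries held 1 GCGTG each, and IGFBP4, INSR and IRS2 held neither motif. The insulin response motif CAAAACAA, held by 1.46% of all promoters, occurred in IRS2 alone among these genes, and the forkhead motif TGTTTAC, held by 2.98%, in none of them. These matches describe letters and are not evidence of binding.

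Total counts lay between 76481820 and 91604947 per library. The root mean square difference in log2 CPM between a library and its group mates lay between 0.819 and 0.959, with no library set apart. APOA4 itself was still counted in the edited line, at 7.71 ± 0.688 CPM (SD, n = 3) before hypoxia against 9.03 ± 0.608 CPM in HepG2, and at 8.21 ± 0.490 CPM against 20.1 ± 1.44 CPM at 48 h. The table counts whole genes and does not show which exons were read, so this neither bears out the edit nor goes against it. The 9 hepatocyte markers (among them ALB, APOA1 and TTR) summed to 50329 to 76120 CPM. Their sum was lowest in HepG2 at 0 h and highest in APOA4-KO at 24 h, the groups in which the summed counts of the 10 genes were also lowest and highest, and its part in the results was not tested. The markers did not move alike. Between these groups the mean of APOA1 alone fell, from 6577 to 4634 CPM. Those of AFP (130 to 1493 CPM) and FGB (101 to 834 CPM) rose most in proportion. The 5 leukocyte and 6 fibroblast markers summed to at most 81.9 and 54.2 CPM, and 0 of either list were at 0 in all libraries. The leukocyte sum was highest in APOA4-KO at 48 h (73.9 to 81.9 CPM), as was IGFBP3, and its part in the results was not tested. Most of that sum was CD68, with a mean of 69.3 CPM. The mean of CD14 was lowest in that group (4.59 CPM, against 7.73 CPM in APOA4-KO at 0 h). PTPRC averaged 3.99 CPM there, below HepG2 at 24 h (5.28 CPM).

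Levels are given in FPKM (fragments per kilobase of transcript, scaled to library depth). In HepG2 before hypoxia IGF2 was the highest at 211 ± 1.96 FPKM (SD, n = 3), followed by IGFBP1, IGFBP4, IGF2R, IGF1R, IRS1, INSR, IGFBP3, IGFBP2 and IRS2. The ranges of neighbors in this order did not overlap except for IGFBP3 and IGFBP2. IGFBP1 stood above IGF2 in each of the other 5 groups. The main change in order was that of IGFBP3, which was in place 9 in APOA4-KO at 0 h, place 7 at 24 h and place 4 at 48 h, above all 3 receptors. INSR stood below IRS1 in HepG2 at 0 h and above it at 48 h, and the 24 h ranges of these genes overlapped. Together the 10 genes took 0.297% to 0.301% of all counts in HepG2 at 0 h and 1.36% to 1.41% in APOA4-KO at 24 h.

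**Figure D1:**
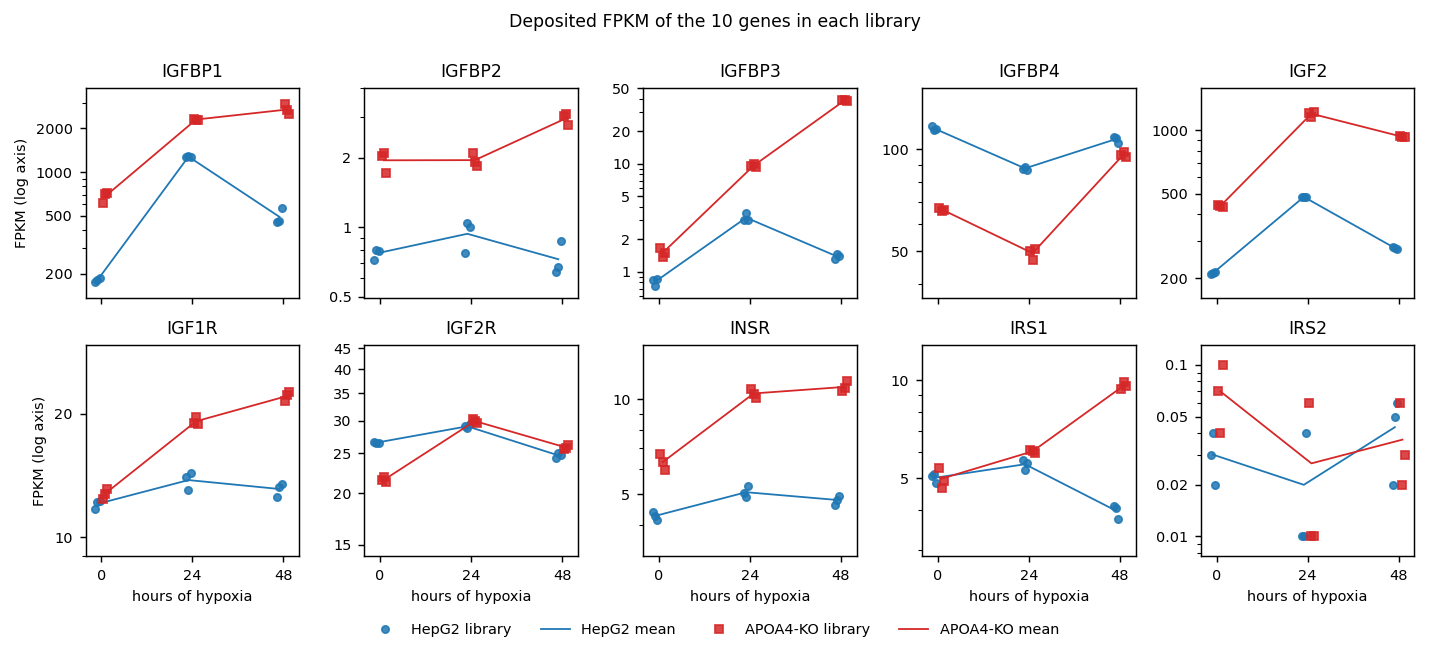
FPKM (log axis) of each of the 10 genes against hours of hypoxia, with 1 point per library (circles HepG2, squares APOA4-KO) and lines through the group means of 3 libraries. IGFBP3 in APOA4-KO climbs from 1.37 to 1.65 FPKM at 0 h to 38.2 to 39.1 FPKM at 48 h, while in HepG2 it peaks at 24 h.

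IGFBP3 encodes the main carrier of IGFs in plasma. In HepG2 its level was 0.84, 0.74 and 0.85 FPKM in the 3 libraries at 0 h, 3.01, 3.51 and 3.00 FPKM at 24 h, and 1.31, 1.45 and 1.40 FPKM at 48 h. In APOA4-KO it was 1.65, 1.37 and 1.48 FPKM at 0 h, 9.45, 10.04 and 9.41 FPKM at 24 h, and 39.1, 38.97 and 38.2 FPKM at 48 h. HepG2 thus peaked at 24 h and was lower again at 48 h, whereas APOA4-KO was still higher at 48 h than at 24 h, and no pair of groups at the same time overlapped. As log2 fold changes, given without a test, APOA4-KO was above HepG2 by 0.86 ± 0.077 (SE) at 0 h, 1.53 ± 0.067 at 24 h and 4.95 ± 0.077 at 48 h. Against 0 h, HepG2 stood 2.04 higher at 24 h and 0.76 higher at 48 h, and APOA4-KO stood 2.71 and 4.85 higher. The counts behind these values were 282 to 1502 per library in HepG2 and 13851 to 14878 in APOA4-KO at 48 h.

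IGFBP1, a liver-secreted IGF carrier, had the highest FPKM of the 10 transcripts under hypoxia. FPKM is divided by length, which the values imply is 1678 bases for IGFBP1 and 7301 for IGF2. In mean CPM, IGFBP1 stood below IGF2 in every group, with 2211 against 3642 in HepG2 at 24 h. Its level in HepG2 was 176, 179.85 and 185 FPKM at 0 h, 1275, 1289.93 and 1272 FPKM at 24 h, and 452, 460.31 and 562 FPKM at 48 h. APOA4-KO libraries had 615, 703 and 723 FPKM at 0 h, 2329, 2279 and 2299.56 FPKM at 24 h, and 2942, 2657 and 2497 FPKM at 48 h. Every APOA4-KO library was above every HepG2 library of its time, and HepG2 returned part of the way after 24 h while APOA4-KO did not. HepG2 rose 7.45-fold by 24 h (log2 fold change 2.90 ± 0.072, SE, edgeR adjusted p = 5.3e-16) and stood 2.70-fold above its start at 48 h (1.43 ± 0.068, edgeR adjusted p = 1.3e-11). APOA4-KO rose 3.45-fold by 24 h (1.79 ± 0.069, edgeR adjusted p = 1.7e-13) and 4.43-fold by 48 h (2.15 ± 0.070, edgeR adjusted p = 6.9e-15). APOA4-KO exceeded HepG2 on the log2 scale by 1.89 ± 0.069 before hypoxia, by 0.78 ± 0.067 after 24 h and by 2.61 ± 0.071 after 48 h, with edgeR adjusted p of 2.4e-13, 9.9e-09 and 5.2e-16.

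IGFBP2, another secreted carrier that is abundant in fetal liver, was low throughout. It lay at 0.72, 0.80 and 0.79 FPKM in HepG2 at 0 h, 0.77, 1.04 and 1.00 FPKM at 24 h, and 0.64, 0.67 and 0.87 FPKM at 48 h. In APOA4-KO it lay at 2.04, 2.1 and 1.71 FPKM at 0 h, 2.1, 1.91 and 1.85 FPKM at 24 h, and 3.03, 3.10 and 2.76 FPKM at 48 h. The lines did not overlap at any time, whereas the HepG2 times overlapped each other. The log2 excess of APOA4-KO was 1.31 ± 0.13 before hypoxia (edgeR adjusted p = 2.6e-07), 0.99 ± 0.13 at 24 h (edgeR adjusted p = 2.5e-06) and 2.16 ± 0.13 at 48 h (edgeR adjusted p = 7e-11). The 24 h value is just under the fold change limit of 1, and it passed that limit in 14 of the 18 refits without 1 library, reaching at most 1.08, and with library size alone. Within HepG2 neither time passed the test against 0 h (0.35 ± 0.13, edgeR adjusted p = 0.052, and -0.09 ± 0.13, edgeR adjusted p = 0.69), and within APOA4-KO only the 48 h rise did (0.76 ± 0.13, edgeR adjusted p = 5e-05).

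IGFBP4 encodes a carrier that is cleaved by the protease PAPPA, and it was the one of the 4 binding proteins that was lower in APOA4-KO before hypoxia. Its level was 117, 114 and 115 FPKM in HepG2 at 0 h, 87.5, 88.5 and 87.0 FPKM at 24 h, and 108.82, 108.05 and 104.07 FPKM at 48 h. The APOA4-KO libraries were at 67.0, 65.9 and 66.3 FPKM at 0 h, 50.02, 47.2 and 50.7 FPKM at 24 h, and 95.8, 98.2 and 95.0 FPKM at 48 h. Both lines dipped at 24 h, and APOA4-KO then passed its own starting level. The log2 difference between the lines was -0.82 ± 0.029 at 0 h (edgeR adjusted p = 2e-13) and -0.90 ± 0.030 at 24 h (edgeR adjusted p = 1.8e-14), within the fold change limit. At 48 h no difference was detected after TMM scaling (-0.0013 ± 0.029, edgeR adjusted p = 0.98), although the unscaled FPKM of the lines did not overlap. With library size alone the 48 h difference was -0.15 and passed the adjusted p. From 24 h to 48 h APOA4-KO rose 2.14-fold (1.10 ± 0.030, edgeR adjusted p = 2.5e-15), against 1.15-fold in HepG2 (0.20 ± 0.029, edgeR adjusted p = 2.7e-05).

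IGF2, the fetal growth factor that many hepatomas express, was the most abundant ligand transcript. In HepG2 it was at 209, 211 and 212 FPKM at 0 h, 485, 482 and 485 FPKM at 24 h, and 281, 277 and 275 FPKM at 48 h. The APOA4-KO levels were 442, 437 and 436 FPKM at 0 h, 1208, 1162 and 1226 FPKM at 24 h, and 937, 931 and 927 FPKM at 48 h. Both lines were highest at 24 h, and the lines were apart at every time. APOA4-KO was higher by a log2 difference of 1.03 ± 0.018, 1.24 ± 0.019 and 1.90 ± 0.019 at 0 h, 24 h and 48 h, with edgeR adjusted p of 1.4e-17, 2.4e-19 and 8.8e-22. HepG2 rose by 1.27 ± 0.019 at 24 h and 0.38 ± 0.018 at 48 h, and APOA4-KO by 1.48 ± 0.019 and 1.25 ± 0.019, all with edgeR adjusted p of at most 1.5e-11. IGF2 shares 75.0% of its exon bases with other annotated genes. A second GENCODE entry, also named IGF2, covers 73.7% of them on the same strand. It held 27 counts in all libraries together and is not part of the IGF2 values given here. INS-IGF2 held 6 and IGF2-AS on the opposite strand held 4131, so the IGF2 count is uncertain by how such reads were assigned. The sources differ on whether the libraries keep strand, and reads of IGF2 and IGF2-AS over their shared bases may not be told apart. The other ligands of the axis, IGF1 and INS, had 0 counts in all 18 libraries, which allows at most 0.0327 to 0.0392 CPM per library by counting error alone.

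IGF1R, the signaling receptor for IGFs, had similar levels in the lines at 0 h and differed between them at 24 h and 48 h. It was at 11.7, 12.2 and 12.3 FPKM in HepG2 at 0 h, 13.99, 13.04 and 14.3 FPKM at 24 h, and 12.6, 13.3 and 13.5 FPKM at 48 h. In APOA4-KO it was at 12.4, 12.8 and 13.1 FPKM at 0 h, 18.99, 19.7 and 18.9 FPKM at 24 h, and 21.5, 22.2 and 22.6 FPKM at 48 h. All HepG2 libraries lay below every APOA4-KO library of the same time, narrowly so at 0 h. Between the lines the log2 difference of IGF1R came to 0.06 ± 0.036 at 0 h (edgeR adjusted p = 0.24), 0.41 ± 0.036 at 24 h (edgeR adjusted p = 1.1e-08) and 0.90 ± 0.036 at 48 h (edgeR adjusted p = 1.2e-13). As a line difference in the change, the 24 h value was 0.35 ± 0.050 and the 48 h value 0.84 ± 0.050, with edgeR adjusted p of 2e-05 and 1.6e-10.

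INSR, the insulin receptor, was higher in APOA4-KO at each time. HepG2 libraries were at 4.38, 4.27 and 4.13 FPKM at 0 h, 5.03, 4.88 and 5.29 FPKM at 24 h, and 4.63, 4.79 and 4.94 FPKM at 48 h. APOA4-KO libraries were at 6.68, 6.30 and 5.97 FPKM at 0 h, 10.8, 10.4 and 10.07 FPKM at 24 h, and 10.6, 10.8 and 11.4 FPKM at 48 h. No library of 1 line reached the range of the other. The log2 difference went from 0.55 ± 0.046 at 0 h to 0.97 ± 0.046 at 24 h and 1.34 ± 0.047 at 48 h, with edgeR adjusted p of 3.1e-08, 2.4e-12 and 1.8e-14. The part gained by 48 h, as a line difference in the change, was 0.80 ± 0.065 (edgeR adjusted p = 1.2e-08).

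IGF2R is the scavenger receptor for IGF2. It ranged from 26.5 to 26.6 FPKM in HepG2 at 0 h, 28.7 to 29.4 FPKM at 24 h and 24.4 to 25.03 FPKM at 48 h, and in APOA4-KO from 21.3 to 21.9, 29.6 to 30.3 and 25.6 to 26.2 FPKM. APOA4-KO was thus below HepG2 at 0 h and slightly above it in FPKM at both hypoxic times. The log2 difference was -0.32 ± 0.017 at 0 h (edgeR adjusted p = 5.7e-11), -0.02 ± 0.017 at 24 h (edgeR adjusted p = 0.27) and 0.21 ± 0.017 at 48 h (edgeR adjusted p = 4.3e-09). The 24 h value changed sign with library size alone, to 0.04. APOA4-KO moved from its 0 h level by 0.50 ± 0.017 (24 h) and 0.42 ± 0.017 (48 h), against 0.20 ± 0.017 and -0.12 ± 0.017 in HepG2, and each of these 4 changes had an edgeR adjusted p of at most 3.8e-05.

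IRS1, the docking protein downstream of both receptors, differed between the lines at 48 h. It was at 5.06, 5.13 and 4.82 FPKM in HepG2 at 0 h, 5.70, 5.28 and 5.56 FPKM at 24 h, and 4.11, 4.05 and 3.74 FPKM at 48 h. In APOA4-KO it was at 5.38, 4.66 and 4.89 FPKM at 0 h, 6.09, 6.05 and 5.98 FPKM at 24 h, and 9.38, 9.85 and 9.62 FPKM at 48 h. The lines overlapped at 0 h but not at 24 h, and at 48 h HepG2 was below and APOA4-KO above its own start. The log2 difference between the lines was -0.03 ± 0.051 at 0 h (edgeR adjusted p = 0.73), 0.06 ± 0.051 at 24 h (edgeR adjusted p = 0.35) and 1.43 ± 0.052 at 48 h (edgeR adjusted p = 3.6e-14). From 0 h to 48 h HepG2 fell by 0.35 on the log2 scale (edgeR adjusted p = 3.4e-05) and APOA4-KO rose by 1.11 ± 0.051 (edgeR adjusted p = 1.3e-12). With library size alone the APOA4-KO rise was 0.95, under the fold change limit.

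IRS2, the second docking protein, was close to the floor of detection. Its counts were 6 to 47 per library in HepG2 and 8 to 67 in APOA4-KO, and its level was at most 0.1 FPKM. None of its comparisons passed the test with all libraries, the log2 fold changes had standard errors of 0.70 to 1.01, and differences of this gene were not detectable at this depth. Without APOA4-KO 24 h replicate 1 the IRS2 change in APOA4-KO from 0 h to 24 h was -2.27 and passed (edgeR adjusted p = 0.028).

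Before hypoxia, the binding proteins IGFBP1 and IGFBP2 and the ligand IGF2 were more than 2-fold higher in APOA4-KO, and INSR was higher by a smaller step. A gene was called where the edgeR adjusted p was under 0.05 over the 19743 genes tested and the absolute log2 fold change was at least 1. At 0 h, 3 of the 9 genes other than IGFBP3 were called higher (IGFBP1, IGFBP2 and IGF2) and 0 lower, where 2.65% of all tested genes were called higher and 1.66% lower. At 24 h IGF2 alone was called higher and 0 lower (4.5% and 3.28% of all genes), with IGFBP2 and INSR just under the fold change limit. At 48 h, 5 of 9 were called higher (IGFBP1, IGFBP2, IGF2, INSR and IRS1) and 0 lower (6.37% and 7.18% of all genes). The adjusted p alone was passed by 4 higher and 2 lower at 0 h, where 12.9% of all genes passed it higher and 17.6% lower. It was passed by 5 higher and 1 lower at 24 h (23.6% and 24.6% of all genes), and by 7 higher and 0 lower at 48 h (23.5% and 27.3%). The median log2 difference of the 9 genes was 0.55, 0.41 and 1.34 at the 3 times, and that of all tested genes was -0.0067, 0.0095 and -0.04.

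**Figure D2:**
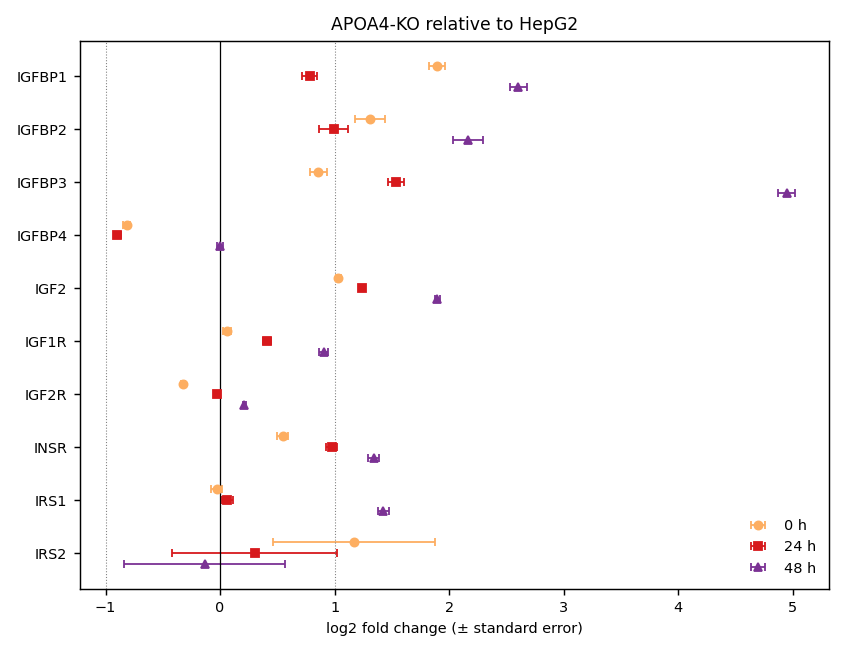
Log2 fold change of APOA4-KO relative to HepG2 (horizontal axis) for each of the 10 genes at 0 h, 24 h and 48 h, with bars of ± 1 standard error and dotted lines at the limits of -1 and 1. At 48 h IGFBP3 stands at 4.95, IGFBP1 at 2.61 and IGFBP2 at 2.16, while IGFBP4 is at 0 within its error.

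IGFBP1 and IGF2 were higher after 24 h of hypoxia in both lines. In HepG2 these were the 2 genes called higher at 24 h, with 0 lower (2.06% and 1.02% of all genes), and IGFBP1 alone was called higher at 48 h, with 0 lower (1.41% and 0.765%). In APOA4-KO IGFBP1 and IGF2 were called higher at 24 h, with 0 lower (3.69% and 2.19%), and IGFBP1, IGF2 and IRS1 at 48 h, with 0 lower (5.34% and 6.85%). By adjusted p alone, HepG2 had 6 of 9 higher and 1 lower at 24 h (11.4% and 18.3% of all genes) and 4 higher and 3 lower at 48 h (13.1% and 14.6%). APOA4-KO had 6 higher and 1 lower at 24 h (21.5% and 22.8%) and 8 higher and 0 lower at 48 h (23.9% and 25.9%). The gene that fell at 24 h was IGFBP4 in both lines, and those that fell at 48 h in HepG2 were IGFBP4, IGF2R and IRS1. These comparisons share the 0 h libraries of their line.

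**Figure D3:**
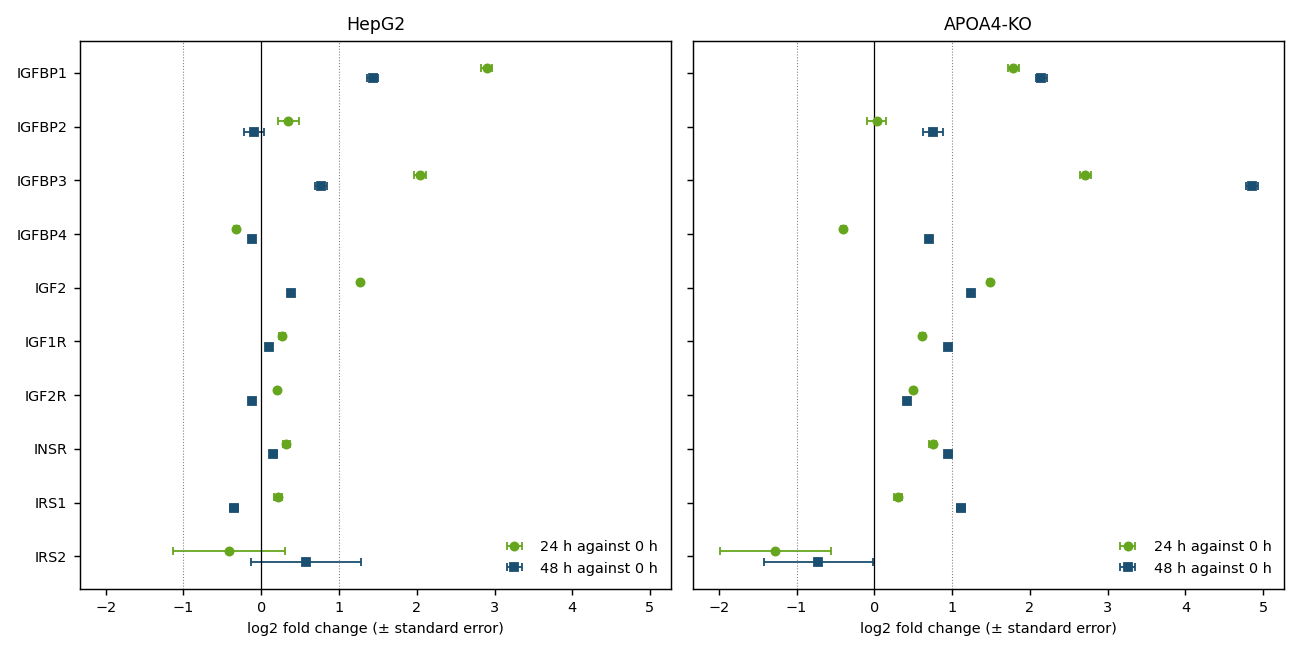
Log2 fold change against 0 h of the same line for each of the 10 genes, HepG2 on the left and APOA4-KO on the right, at 24 h (circles) and 48 h (squares), with bars of ± 1 standard error and dotted lines at -1 and 1. In HepG2 the 48 h value of IGFBP1 (1.43) is below its 24 h value (2.90), and in APOA4-KO it is above (2.15 against 1.79).

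On the log2 scale, the response of IGFBP1 at 24 h was smaller in APOA4-KO, which began from a higher level, and that of IRS1 at 48 h was larger. In mean CPM the order for IGFBP1 was the opposite. It went from 297 to 2211 CPM in HepG2 and from 1100 to 3799 CPM in APOA4-KO, the larger rise in that unit. The line difference in the 24 h change was -1.11 ± 0.095 for IGFBP1 (edgeR adjusted p = 4.2e-08), the only one of the 9 called lower, and 0 were called higher (1.19% and 1.41% of all genes). By adjusted p alone 4 were higher and 1 lower in this comparison (16.8% and 15.4% of all genes). At 48 h IRS1 was the only gene called higher, by 1.46 ± 0.072 (edgeR adjusted p = 1.2e-11), and 0 were called lower (3.43% and 3.99%). By adjusted p alone 8 of 9 had the larger change in APOA4-KO at 48 h and 0 the smaller (18.6% and 17.8% of all genes). These 8 were IGFBP1 (0.71), IGFBP2 (0.85), IGFBP4 (0.82), IGF2 (0.86), IGF1R (0.84), IGF2R (0.54), INSR (0.80) and IRS1, as log2 differences. Their common sign is not 8 separate observations, since all were measured in the same libraries.

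The interval from 24 h to 48 h was added as a comparison after the data were seen. In HepG2, IGFBP1 fell by 1.47 on the log2 scale (edgeR adjusted p = 9.1e-12), the only one of the 9 called lower, with 0 higher (1.43% and 0.689% of all genes). By adjusted p alone 7 of 9 fell and 1 rose in HepG2 (11.9% and 18.7% of all genes), the largest falls after IGFBP1 being IGF2 (-0.89 ± 0.018, edgeR adjusted p = 1.5e-16) and IRS1 (-0.56 ± 0.051, edgeR adjusted p = 8.9e-08). In APOA4-KO, IGFBP4 was called higher and 0 lower (2.02% and 3.64%), and by adjusted p alone 6 rose and IGF2 and IGF2R fell, by log2 fold changes of -0.23 and -0.08 (21.9% of all genes rose and 19.4% fell). The line difference in this change was called higher for IGFBP1 (1.82 ± 0.095), IGFBP2 (1.17 ± 0.18) and IRS1 (1.36 ± 0.072), and 0 were called lower (3.94% and 4.74%). By adjusted p alone it was higher for 8 and lower for 0 (18.8% and 20.6% of all genes). IGFBP3 fell to 0.413 times its 24 h level in HepG2 and reached 4.40 times that level in APOA4-KO.

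The TMM factors of the APOA4-KO 48 h libraries (0.925 to 0.936) were the lowest of all, and the 48 h comparisons moved with the scaling. With library size alone the median log2 difference of all genes between the lines at 48 h moved from -0.04 to -0.19. The share of calls that were higher moved from 47.0% to 34.0% between the lines at 48 h, from 43.8% to 30.4% for APOA4-KO at 48 h against 0 h, and from 46.2% to 27.8% for the line difference in the 48 h change. It moved from 32.5% to 44.7% for HepG2 from 24 h to 48 h, from 35.6% to 21.9% for APOA4-KO, and from 45.4% to 23.3% for the line difference between them. The number of members called between the lines at 48 h was 5 under each scaling.

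The ratio of carrier to ligand transcripts differed between the lines, in opposite directions for IGFBP1 and IGFBP4 at 0 h. The ratio of IGFBP1 to IGF2 in FPKM was 0.843, 0.852 and 0.872 in the HepG2 libraries before hypoxia, 2.63, 2.68 and 2.62 after 24 h, and stood at 1.61, 1.66 and 2.05 after 48 h. APOA4-KO libraries began at 1.39, 1.61 and 1.66, had 1.93, 1.96 and 1.88 after 24 h, and reached 3.14, 2.85 and 2.69 after 48 h. HepG2 exceeded APOA4-KO in every library at 24 h, and the order was the opposite at 0 h and 48 h. The ratio of IGFBP4 to IGF2 was 0.539 to 0.560 in HepG2 against 0.151 to 0.152 in APOA4-KO before hypoxia. It was 0.179 to 0.184 against 0.0406 to 0.0414 after 24 h, and 0.379 to 0.391 against 0.102 to 0.106 after 48 h, so APOA4-KO was lower at each time. The ratio of IGFBP1 to IGFBP3 was between 65.4 and 75.2 in APOA4-KO at 48 h and between 209 and 513 in the other groups. The ratio of INSR to IGF1R was between 0.337 and 0.375 in all HepG2 libraries and between 0.455 and 0.569 in all APOA4-KO libraries.

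**Figure D4:**
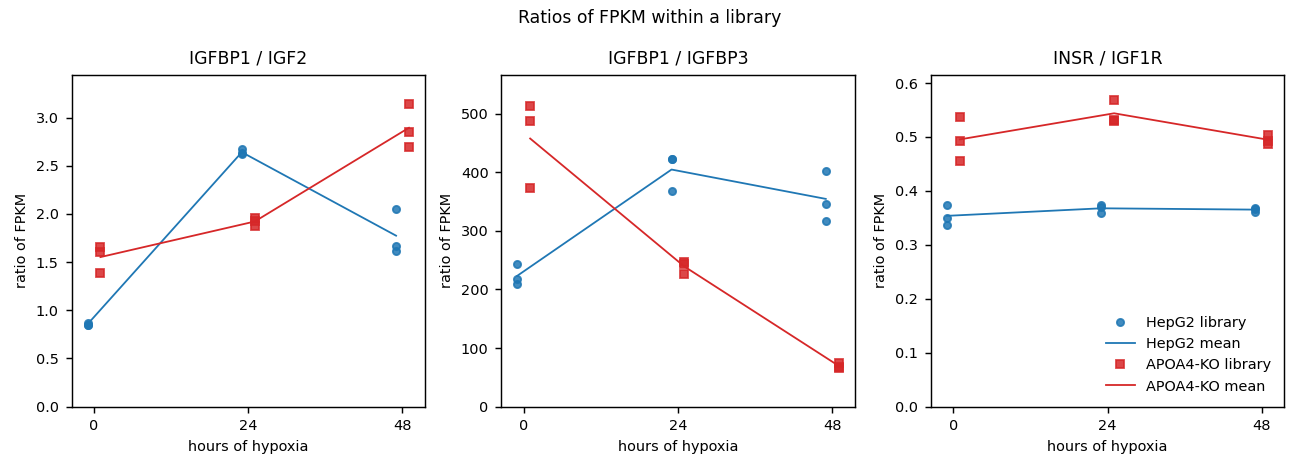
Ratio of FPKM of 2 genes within a library against hours of hypoxia, with 1 point per library and lines through the group means. IGFBP1 to IGF2 is at most 1.66 in APOA4-KO and at most 0.872 in HepG2 at 0 h, IGFBP1 to IGFBP3 drops to 65.4 to 75.2 in APOA4-KO at 48 h, and INSR to IGF1R separates the lines at each time.

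With genes limited to the 10241 that averaged 5 CPM or more, those whose log2 CPM ran most like IGFBP3 over the 18 libraries were CASC19 and SLC38A2 (both r = 0.993), DUSP6 (0.993), PRRC2B (0.992) and FILIP1L (0.991). SLC38A2, an amino acid transporter, went from 602 to 2380.06 CPM between 0 h and 48 h in APOA4-KO and from 440.1 to 531 CPM in HepG2. DUSP6, a phosphatase that acts on ERK, went from 44.3 to 179.9 CPM and from 29.1 to 37.7 CPM. Those most like IGFBP1 were HAL (0.987), CP (0.982), HEG1 (0.976), LYZ (0.973) and ARID5B (0.972), of which CP, the plasma copper carrier ceruloplasmin, went from 249.9 to 964 CPM in HepG2 by 24 h and from 516 to 1199 CPM in APOA4-KO. IGFBP1 itself had a correlation of 0.955 with IGF2 and 0.906 with IGFBP3, and IGFBP4 had one of -0.577 with IGF2. The libraries share lines and times, and these correlations describe 18 libraries only.

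Of 46 other genes of the axis, 40 could be tested. Between the lines 4 were called higher and 0 lower at 0 h, which is 10% and 0% of those tested, against 2.65% and 1.66% of all genes. After 24 h the calls were 8 and 1, or 20% and 2.5% against 4.5% and 3.28%. By 48 h they were 10 and 1, or 25.0% and 2.5% against 6.37% and 7.18%. Against 0 h, HepG2 had 1 called higher and 3 lower after 24 h (2.5% and 7.5%, against 2.06% and 1.02%) and 1 of each after 48 h (2.5% each, against 1.41% and 0.765%), each a count of at most 3 genes. APOA4-KO had 3 higher and 1 lower after 24 h (7.5% and 2.5%, against 3.69% and 2.19%) and 5 higher and 2 lower after 48 h (12.5% and 5.0%, against 5.34% and 6.85%). Their median log2 difference between the lines was 0.03, 0.47 and 0.20 at the 3 times. The line difference in the change was called higher for 2 and lower for 0 after 24 h (5% and 0%, against 1.41% and 1.19%). It was called higher for 4 and lower for 1 after 48 h (10% and 2.5%, against 3.43% and 3.99%). By edgeR adjusted p alone, 25.0% were higher and 25.0% lower between the lines before hypoxia, against 12.9% and 17.6% of all genes. The shares were 55.0% and 25.0% after 24 h (23.6% and 24.6% of all genes) and 52.5% and 30.0% after 48 h (23.5% and 27.3%). With limma on log2(FPKM + 1), on which low genes change less, 38 of the 46 calls of the listed genes fell below the limit.

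Among carriers and their proteases, IGFBP5 and PAPPA differed between the lines at every time. IGFBP7 and IGFALS went the other way. IGFBP7 averaged 21.3, 15.6 and 13.5 FPKM in HepG2 at the 3 times, against 13.9, 7.32 and 8.49 FPKM in APOA4-KO. IGFALS averaged 2.44, 0.823 and 1.65 FPKM against 1.48, 0.747 and 1.02 FPKM, overlapping at 24 h. Of the 4 carriers tested, 1 passed the edgeR adjusted p higher and 2 lower between the lines at 0 h and at 48 h. At 24 h it was 1 of each. IGFBP5 is the neighbor of IGFBP2 on chromosome 2, with 7668 bases between them. It lay at 0.18 to 0.21 FPKM in HepG2 at 0 h and 0.01 to 0.02 FPKM at 48 h, and at 0.76 to 1.23 and 0.16 to 0.24 FPKM in APOA4-KO. It thus fell over 48 h in both lines (log2 fold changes of -3.81 ± 0.69 and -2.09 ± 0.56, edgeR adjusted p of 3e-04 and 0.0042) and was higher in APOA4-KO at each time. The HepG2 48 h libraries held only 4 to 12 counts of IGFBP5. With limma on log2(FPKM + 1) the HepG2 fall was -0.20 at 24 h and -0.24 at 48 h (limma adjusted p of 0.34 and 0.28). APOA4-KO counts at 24 h ran from 85 to 548, and the 24 h line difference was 2.31 to 4.63 without 1 library. PAPPA, the protease that cleaves IGFBP4, was very low, at 0.01 to 0.06 FPKM in HepG2 and 0.05 to 0.27 FPKM in APOA4-KO, and was higher in APOA4-KO by 1.62 ± 0.38, 2.22 ± 0.36 and 2.50 ± 0.37 (edgeR adjusted p of 0.0025, 4e-05 and 1.2e-05). Its rise in HepG2 at 24 h (1.05 ± 0.38, edgeR adjusted p = 0.043) lay near the threshold and was lost in 4 of the 6 other settings, with library size alone (0.98), no filter (edgeR adjusted p = 0.079) and both limma fits (0.04 and 0.29). It was also lost in 8 of 18 refits without 1 library, with values of 0.71 to 1.15. The libraries left out were HepG2 0 h replicates 1 and 2, HepG2 24 h replicates 2 and 3, APOA4-KO 0 h replicate 3, APOA4-KO 24 h replicate 2 and APOA4-KO 48 h replicates 1 and 3. STC2, a secreted inhibitor of PAPPA, was far more abundant and went from 12.1 to 13.3 FPKM in HepG2 at 0 h to 29.8 to 30.1 FPKM at 48 h, and from 12.5 to 13.5 to 36.5 to 37.5 FPKM in APOA4-KO. IGF2-AS, antisense to IGF2, was higher in APOA4-KO by 1.78 ± 0.35, 1.61 ± 0.34 and 2.26 ± 0.35 at the 3 times. The 0 h value was 2.62 without HepG2 0 h replicate 3, where the HepG2 counts ran from 41 to 151. The 3 IGF2 mRNA-binding proteins had 0 calls by edgeR in any comparison. Between the lines at 24 h all 3 passed the adjusted p higher, as did 23.6% of all genes. At 0 h and at 48 h 2 of them passed it higher and 0 lower (12.9% and 23.5% of all genes higher).

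Of the 22 genes of the signaling branch, 6 were called higher and 1 lower between the lines at 48 h. These are 27.3% and 4.55%, against 6.37% and 7.18% of all genes. By edgeR adjusted p alone 54.5% were higher and 36.4% lower, against 23.5% and 27.3%. The mean was lower in APOA4-KO for AKT1 (214 against 247 CPM), AKT2 (149 against 191 CPM) and MTOR (62.8 against 88.1 CPM). The 3 measured FOXO genes, transcription factors that AKT holds out of the nucleus, were higher in APOA4-KO at 48 h. FOXO1 was at 4.17 to 4.46 FPKM in HepG2 and 9.72 to 10.01 FPKM in APOA4-KO (log2 difference 1.33 ± 0.064, edgeR adjusted p = 1.8e-12). FOXO3 was at 4.75 to 4.95 and 10.9 to 11.5 FPKM (1.36 ± 0.058, edgeR adjusted p = 3.9e-13), and FOXO4 at 3.57 to 4.33 and 7.26 to 8.15 FPKM (1.11 ± 0.079, edgeR adjusted p = 6.8e-10). With library size alone FOXO4 was at 0.96, under the limit. RICTOR, the defining subunit of mTORC2, was higher in APOA4-KO by 1.48 ± 0.092 at both 24 h and 48 h. PIK3R3, a regulatory subunit of PI3K, went the other way: it was at 0.95 to 1.02 FPKM in HepG2 at 0 h and 0.46 to 0.59 FPKM at 48 h, and at 0.57 to 0.65 and 0.04 to 0.05 FPKM in APOA4-KO, a line difference in the 48 h change of -2.60 ± 0.23 (edgeR adjusted p = 3.3e-08).

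The adaptors that bind activated insulin receptors, GRB10 and GRB14, were called higher in APOA4-KO at 24 h. GRB10 was at 0.77 to 0.97 FPKM in HepG2 and 2.1 to 2.63 FPKM in APOA4-KO at that time (1.34 ± 0.10, edgeR adjusted p = 1.3e-09). Its rise in APOA4-KO from 0 h to 24 h (1.00 ± 0.099) lay at the fold change limit and fell to 0.92 without APOA4-KO 24 h replicate 1. It was also below the limit with library size alone (0.975), DESeq2 (0.996), the replicate block (0.997) and both limma fits (0.603 and 0.916). GRB14 was at 0.20 to 0.39 and 0.79 to 0.83 FPKM (1.40 ± 0.27, edgeR adjusted p = 0.00026), and at 48 h it was higher in APOA4-KO by 1.49 ± 0.28 (edgeR adjusted p = 0.00014). The receptor INSRR had 0 counts in all libraries.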

How the data were processed

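Poly(A) RNA-seq gave 18 libraries, 3 for each of 6 groups of line by time. The deposited counts are whole-number counts per Ensembl gene and the deposited FPKM are fragments per kilobase of transcript scaled to library depth, both made by the authors. The study's methods name fastp, HISAT2 and featureCounts, whereas the submitters' processing notes list fastp, HISAT2 and StringTie on GRCh38.p13, so the counter is not settled. The labels describe a dUTP protocol, which marks strand, whereas the study's methods name a kit that does not, and the strand setting and the handling of multiply mapped reads are not given in the sources used here. A count of 4 was 2.66 to 3.12 times as frequent as its neighbors, so 1 count need not be 1 read pair, and counting limits cover counting error only. Of 61806 identifiers, 61757 matched a symbol.

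Counts were fitted with edgeR 4.0.16 (R 4.3.3): filterByExpr left 19743 genes, TMM factors were 0.925 to 1.04, and 1 quasi-likelihood model with a coefficient per group was fitted to all 18 libraries, with Benjamini-Hochberg adjustment over all tested genes. Standard errors are the absolute log2 fold change over the square root of F. Calls needed an adjusted p under 0.05 and a log2 fold change of 1 or more in size. FPKM was used for levels, and a value in CPM is TMM-scaled. The 9 comparisons were the lines at each time, each hypoxic time against 0 h, and the line difference in those changes, and 3 more between 24 h and 48 h were added after the data were seen. The members and gene lists were chosen with earlier results of these data known. All 10 members were named, as were listed genes called in at least 2 of the 9 comparisons, the 5 genes most like IGFBP3 and IGFBP1, and APOA4. A listed gene that met this rule is not reported here. INSRR, IGF1, INS, IGFBP7 and IGFALS were named after their values were seen. Alternatives were library size alone, DESeq2 1.42.0, no filter, limma 3.58.1 on log2(FPKM + 1) and log2(FPKM + 0.1), a replicate block, and leaving out each library. The procedure was tested on simulated data. Gene positions are from GENCODE and promoters from RefSeq.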

Additional observations from a re-analysis of the deposited data

Results flagged for a closer look

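In 5 cases the change over time of a gene differed between the lines by the edgeR interaction test and by more than the fold change limit, each given as the log2 change in APOA4-KO minus that in HepG2. IGFBP1 changed less in APOA4-KO from 0 h to 24 h, by -1.11 ± 0.095 (SE, edgeR adjusted p = 4.2e-08), with 3 libraries in each of 4 groups. IRS1 changed more in APOA4-KO from 0 h to 48 h, by 1.46 ± 0.072 (edgeR adjusted p = 1.2e-11). From 24 h to 48 h, a comparison added after the data were seen, the difference was 1.82 ± 0.095 for IGFBP1 (edgeR adjusted p = 2.2e-11). Over the same interval it was 1.17 ± 0.18 for IGFBP2 (edgeR adjusted p = 3.3e-05). For IRS1 over that interval it was 1.36 ± 0.072 (edgeR adjusted p = 2.7e-11).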

How the results depend on the processing

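Of 2880 refits of the members' fold changes over 24 alternatives, 2806 kept their direction and side of the threshold, 11 fell below it, 21 passed it, 21 moved (all IGFBP3, which has no test) and 21 changed sign, each of the last near 0 or for IRS2. The cause of these changes was not tested. The number of members called between the lines at 24 h went from 1 to 3 with library size alone, to 2 with limma on log2(FPKM + 0.1) and to 1 to 3 without 1 library, with IGFBP2 (0.99) and INSR (0.97) near the limit. For APOA4-KO from 24 h to 48 h it went from 1 to 0 with library size alone and with both limma fits, and for the line difference over that interval from 3 to 1 with limma on log2(FPKM + 1). With library size alone the difference of IGF2R between the lines at 24 h was 0.0415, and it was 0.0408 and 0.0421 with limma on log2(FPKM + 1) and log2(FPKM + 0.1). That of IGFBP4 at 48 h was 0.0377 with DESeq2 and 0.000336 with no filter, and the change of IGFBP2 in APOA4-KO at 24 h was -7.7e-05 with library size alone. Without 1 library, IRS1 between the lines at 0 h ranged from -0.0960 to 0.0128, IGFBP4 at 48 h from -0.0268 to 0.0148, and IRS2 from -0.699 to 1.41 at 24 h and from -0.602 to 0.179 at 48 h. The line difference in the change of IRS2 ranged from -1.86 to 0.248 at 24 h and from -1.55 to 0.563 from 24 h to 48 h. IGFBP2 ranged from -0.218 to 0.000235 in HepG2 at 48 h and from -0.0407 to 0.104 in APOA4-KO at 24 h. The rise of IRS1 in APOA4-KO at 48 h was 0.949 with library size alone, and 0.830 and 0.939 with limma on log2(FPKM + 1) and log2(FPKM + 0.1). Over all genes, limma on log2(FPKM + 1) called 142 genes against 851 between the lines at 0 h, 326 against 1535 at 24 h and 755 against 2676 at 48 h. It called 100 against 608 and 80 against 430 in HepG2 at 24 h and 48 h, 278 against 1160 and 670 against 2407 in APOA4-KO, and 101 against 512 and 424 against 1464 for the line difference. From 24 h to 48 h it called 49 against 418 in HepG2, 138 against 1117 in APOA4-KO and 485 against 1712 for their difference. With log2(FPKM + 0.1) the counts were 399 and 279 in HepG2 at 24 h and 48 h, and 268 and 727 from 24 h to 48 h in HepG2 and APOA4-KO. Of 1104 refits of 46 calls of the listed genes, 1031 held, 73 fell below the threshold and 0 changed sign. Same-numbered libraries did not deviate together (27 pairs, 0 over 0.1, correlations -0.0539 to 0.0511). This gave no sign of pairing by number but cannot exclude it, since noise between libraries could hide a shared part. With the replicate block the members called were 3, 1 and 5 between the lines, 2 and 1 in HepG2, 2 and 3 in APOA4-KO, 1 and 1 for the line difference, and 1, 1 and 3 for the added comparisons, the counts found without it. IRS2, with 6 to 67 counts per library, is limited by depth.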
